A study of Sus scrofa with 2 samples.

Results

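Expression of 6 genes of the NF-kB response was followed across the cell types of pig renal cortex: the feedback inhibitors NFKBIA (ENSSSCG00000001952) and TNFAIP3 (ENSSSCG00000004154), the subunit NFKB1 (ENSSSCG00000030957) and the inflammatory targets ICAM1 (ENSSSCG00000013655), CCL2 (ENSSSCG00000017723) and IRF1 (ENSSSCG00000014277). The members were taken by symbol, and all 6 were found among the 31908 features of the files. Kidneys came from slaughtered pigs, were flushed with heparin in buffer and kept cold (4 °C) for about 2 h. Cortex was taken before perfusion (unperfused), or once a kidney had been perfused ex vivo for 120 min at 37 °C and 100 mmHg (perfused). The aim was to study the response to hyperfiltration. Whether the unperfused cortex was taken before or after the cold storage is not stated. The perfusate was a salt solution free of albumin and red blood cells. Single-nucleus RNA sequencing gave 1 library of each condition. Time, temperature, pressure and perfusate changed together, and whether the libraries share an animal is not stated.

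NF-kB is a family of transcription factors whose dimers are held in the cytoplasm by inhibitors of the IκB kind. Ligands such as TNF and IL-1, or stimulation of Toll-like receptors, activate a kinase complex that marks these inhibitors for degradation, and the dimers enter the nucleus. Among the genes they switch on are their own inhibitors, which end the response, and adhesion molecules and chemokines that bring leukocytes into the kidney.

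Filtering left 6389 unperfused and 5421 perfused nuclei. Their median depth was 3755 and 4383 UMIs (unique molecular identifiers, so that copies of an RNA made by PCR count once). The libraries shared 8 barcodes among these nuclei. Most of the 20 clusters were named from marker genes, which gave 12 classes: the stroma (STROMA), the endothelium (EC), immune cells (IMM), a small cycling class, podocytes (PODO), and along the tubule PT (proximal), LOH (loop of Henle), DCT (distal convoluted), CNT (connecting), PC (principal cells) and the intercalated types IC-A and IC-B. A further 5 clusters stayed unnamed and are called by their numbers, such as cluster 10, which was led by DGKB, IL33, PLAT and EHD3, and cluster 14, whose leading genes with a symbol were AGMO, RIMS2 and MEGF6. All 9 endothelial markers were raised in EC, while IMM was a mixture in which T lymphocyte genes led 1 subcluster and fibroblast genes (DPT, LUM) led another. IMM held 4.85% of unperfused and 15.8% of perfused nuclei, STROMA 5.82% and 9.89%, and EC 17.8% and 12.7%. Levels are UMIs of a gene summed over a class in 1 library and scaled for depth as CPM, the counts of that gene among a fixed number of UMIs of the class. Differences are given on the log2 scale as a ratio, positive where the perfused library was higher, with exact 95% intervals. With 1 library per condition there is no replicate check and no test. All intervals cover counting error only, and levels are compared within a gene and not between genes.

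The 6 genes shared a broad outline (the plot of CPM by class). Each of them except NFKBIA and ICAM1 had its highest CPM over both libraries in IMM, while NFKBIA and ICAM1 had theirs in cluster 10. The epithelial classes PT, LOH, DCT, CNT, PC, IC-A and IC-B lay below EC, STROMA and IMM for all 6 genes in the CPM over both libraries. NFKB1 ranged from 59.7 CPM (46.4 to 75.5) in IC-B to 206 CPM (189.5 to 223) in IMM, and every class had it. CCL2 had 0 UMIs in PODO, IC-B, cluster 11 and cluster 13, and its highest levels, 36.8 CPM (30.2 to 44.4) in IMM and 35.4 CPM (29.1 to 42.8) in STROMA, did not differ beyond counting error. EC followed with 8.12 CPM (5.56 to 11.5).

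**Figure D1:**
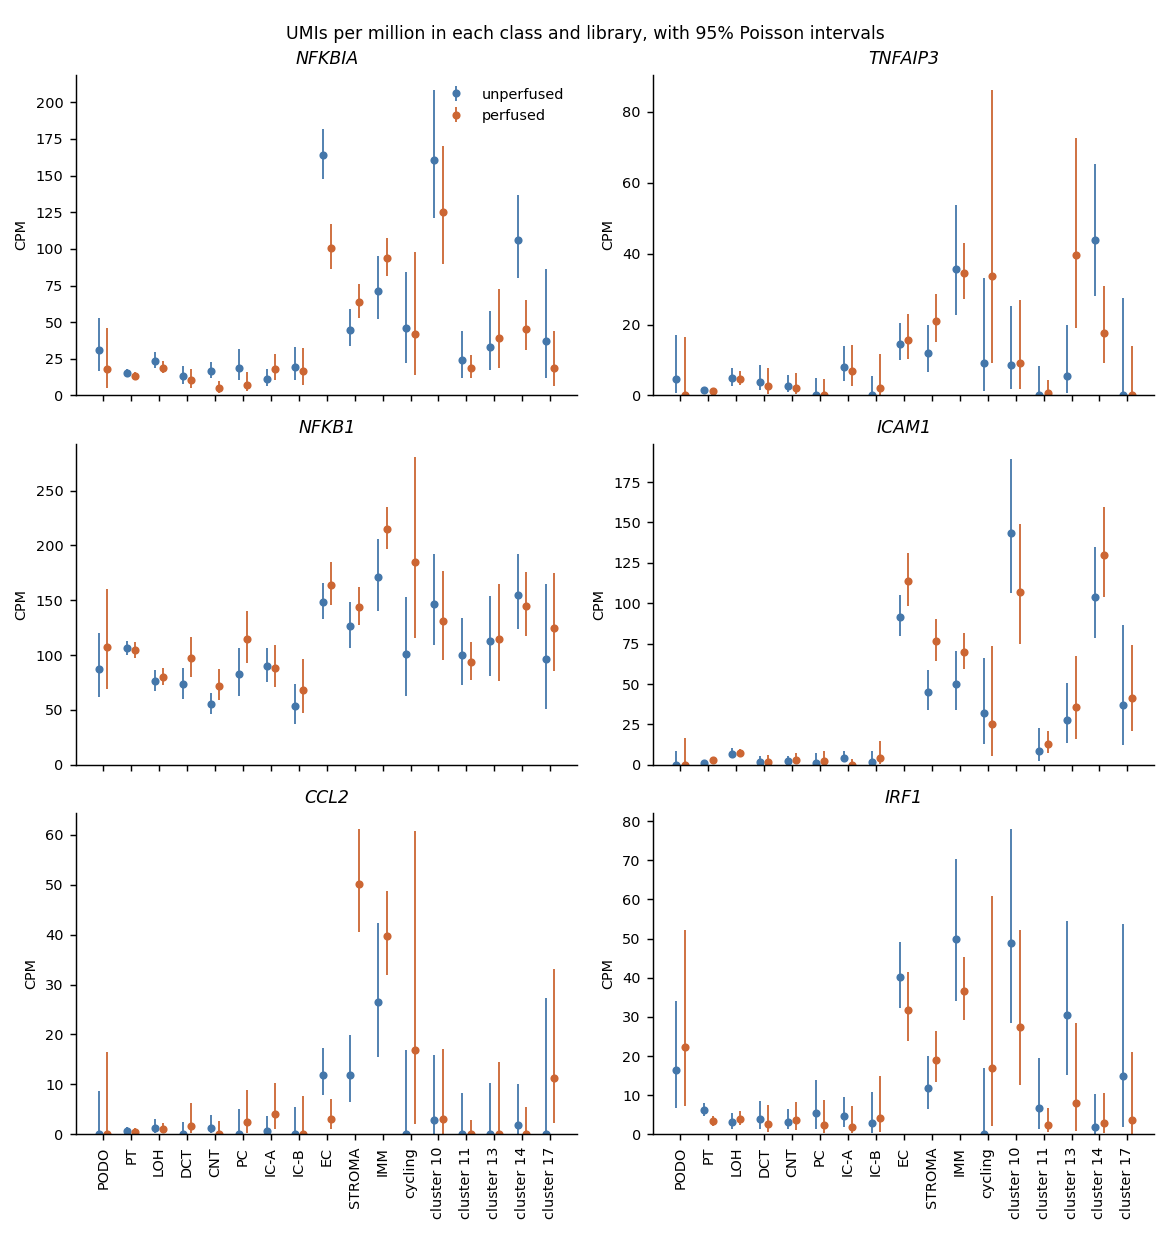
CPM of the 6 genes (y axis, from 0) in each class and unnamed cluster (x axis) of the unperfused (blue) and perfused (orange) library, with exact 95% Poisson intervals as bars. NFKBIA went from 164 to 101 CPM in EC and CCL2 from 11.9 to 50.1 CPM in STROMA.

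A ratio was called past the fold when it was at least 2-fold, with 20 or more UMIs in the richer library and an interval without 0. Of the 72 pairs of a gene and a named class, 35 had enough UMIs, and of these 2 were called higher and 2 lower in the perfused library. CCL2 in STROMA and ICAM1 in PT were higher, and CCL2 in EC and NFKBIA in CNT were lower. Among all genes with enough UMIs the same rule called 4.71% higher and 5.83% lower in STROMA, 0.589% and 8.81% in PT, 0.63% and 5.23% in EC, and 1.15% and 6.02% in CNT. In the unnamed clusters 11 of 30 pairs had enough UMIs, 0 were called higher and 2 lower, both in cluster 14, where 3.03% of all genes were called higher and 3.66% lower. In the sum over all nuclei CCL2 alone was called, with 2.32% of all genes called higher and 8.82% lower (the plot of log2 ratios).

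**Figure D2:**
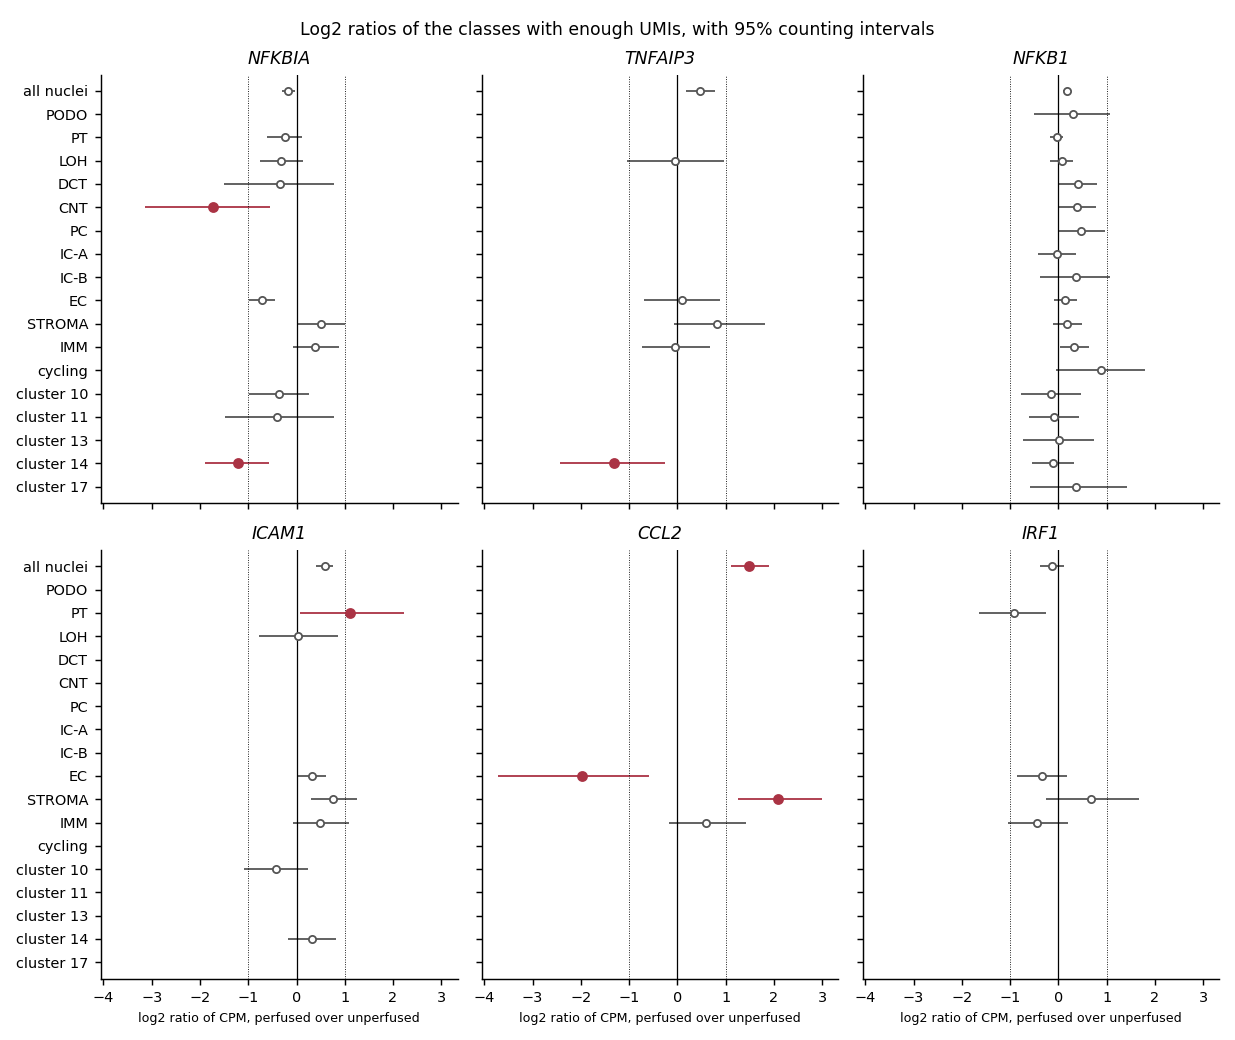
Log2 ratio of CPM, perfused over unperfused (x axis), of the 6 genes over all nuclei and in each class or unnamed cluster with at least 20 UMIs in 1 library (y axis), with exact 95% counting intervals. Filled red points passed the 2-fold rule, and dotted lines mark a 2-fold difference.

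NFKBIA encodes IκBα, the inhibitor that NF-kB itself induces and that restores the resting state. It was lower in perfused than in unperfused EC, while a higher value in perfused STROMA did not hold under all other settings. In EC, 373 UMIs gave 164 CPM (148 to 182) in the unperfused and 168 UMIs gave 101 CPM (86.1 to 117) in the perfused library. The intervals do not overlap, and the log2 ratio was -0.71 (-0.98 to -0.44), short of 2-fold. At least 1 NFKBIA UMI was found in 26.6% (24.0 to 29.2) of unperfused and 20.1% (17.2 to 23.3) of perfused EC nuclei, although the perfused nuclei were deeper (median 1847 and 2148.5 UMIs). Thinned to 1000 UMIs a nucleus, these shares were 14.1% and 8.62%, leaving out 52 and 36 shallower nuclei. In PT, a class with a low level, the unthinned shares were 7.60% and 7.40% at medians of 5291 and 6623 UMIs. Thinned, the PT shares were 2.21% and 1.53%, leaving out 12 and 24 nuclei, and the log2 ratio in PT was -0.60.

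The lower level was found across EC. When EC was clustered again, all 7 subclusters that had 10 or more nuclei in each library had less NFKBIA in the perfused library, and in 2 of them the interval left out 0. The largest, subcluster 0, held 490 unperfused and 62 perfused nuclei and went from 215 CPM (185 to 248) to 105 CPM (61.1 to 168). In the glomerular endothelial subcluster 10 UMIs in 28 nuclei stood against 3 UMIs in 23 nuclei. These gave 179 CPM (85.9 to 329) and 39.4 CPM (8.12 to 115), intervals that overlap. The log2 ratio was -2.19 (-4.68 to -0.23), and this interval left out 0, on few UMIs. With the subcluster shares held fixed, an alternative chosen after seeing the data, the log2 ratio in EC was -0.60. Cluster 10, where all 9 endothelial markers were raised too, shared the leading genes DGKB, EHD3, GATA5 and ITGA8 with the glomerular subcluster. It was larger, with 151 unperfused and 124 perfused nuclei. NFKBIA there was 161 CPM (121 to 209) and 125 CPM (89.9 to 170.0), and these intervals overlap. That log2 ratio was -0.36 (-0.98 to 0.25). Leukocyte markers summed to 72.6 and 61.1 CPM in EC, of which PTPRC made 55.9 and 40.2 CPM (127 and 67 UMIs). CD247 had 18 and 11 UMIs, CD163 4 and 7, CSF1R 3 and 7, DOCK2 5 and 7, and IKZF1 8 and 3. The free RNA estimated from tubule markers was 10.9% and 10.4% of EC UMIs.

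In STROMA, 53 UMIs gave 45.0 CPM (33.7 to 58.8) of NFKBIA in the unperfused and 121 UMIs gave 63.8 CPM (52.9 to 76.2) in the perfused library, a log2 ratio of 0.51 (0.03 to 0.999). The 2 intervals overlap. The direction did not hold under all other settings. Without the nuclei that had a leukocyte marker it was -0.05, after thinning to 1000 UMIs it was -0.35, and with nuclei weighted equally it was -0.0070. Under the remaining settings it stayed above 0, from 0.081 with the subcluster shares held fixed to 0.72 at resolution 1.0. In IMM the values were 71.6 CPM (52.4 to 95.5) and 93.8 CPM (81.7 to 107), with a log2 ratio of 0.39 (-0.07 to 0.88).

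In the tubule NFKBIA was low in both libraries. CNT had 37 UMIs or 16.5 CPM (11.6 to 22.7) in the unperfused and 7 UMIs or 4.94 CPM (1.99 to 10.2) in the perfused library. This log2 ratio of -1.74 (-3.15 to -0.55) passed the fold and ranged from -2.01 to -0.67 under 12 other settings, with the smallest difference after thinning. In PT the values were 15.3 CPM (13.01 to 17.9) and 12.96 CPM (10.6 to 15.7), and in LOH 23.5 CPM (18.6 to 29.4) and 19.0 CPM (15.3 to 23.2). Neither of these pairs differed beyond counting error. LOH had 0.602% of all genes called higher and 5.35% lower, and none of the 6 genes was called there. Over all nuclei NFKBIA was 36.4 and 32.3 CPM, a log2 ratio of -0.17 (-0.30 to -0.04). With the share of each class held fixed this ratio was -0.31.

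TNFAIP3 encodes A20, a ubiquitin-editing enzyme that ends signalling from TNF and Toll-like receptors. It had few UMIs, and its highest levels over both libraries were in IMM and cluster 14. In IMM it was 35.8 CPM (22.7 to 53.7, 23 UMIs) in the unperfused and 34.5 CPM (27.3 to 43.0, 79 UMIs) in the perfused library. In EC it was 14.5 CPM (10.0 to 20.4) and 15.6 CPM (10.2 to 22.8). In both classes the values nearly coincide, with log2 ratios of -0.05 (-0.74 to 0.68) and 0.10 (-0.70 to 0.89), and intervals that hold a 1.5-fold difference either way. In EC the ratio was -0.53 without nuclei that had a leukocyte marker and -0.43 after thinning, and in IMM it was -0.72 after thinning. In STROMA, 14 UMIs gave 11.9 CPM (6.49 to 19.9) and 40 UMIs gave 21.1 CPM (15.1 to 28.7), a log2 ratio of 0.83 (-0.08 to 1.82). Over all nuclei it was higher, at 5.92 CPM (5.03 to 6.92) and 8.19 CPM (7.15 to 9.34), a log2 ratio of 0.47 (0.17 to 0.77). With the share of each class held fixed that ratio was 0.046.

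Both feedback inhibitors were lower in perfused cluster 14. This cluster held 110 unperfused and 101 perfused nuclei and had the proximal tubule transcripts LRP2 (2594 and 2660 CPM) and CUBN (2174 and 2366 CPM) at a lower level than PT. NFKBIA was 106 CPM (80.4 to 137, 58 UMIs) in the unperfused and 45.7 CPM (31.0 to 64.8, 31 UMIs) in the perfused library, a log2 ratio of -1.21 (-1.89 to -0.56). TNFAIP3 was 43.8 CPM (28.1 to 65.2, 24 UMIs) and 17.7 CPM (9.13 to 30.9, 12 UMIs), a log2 ratio of -1.31 (-2.44 to -0.25). In the same nuclei ICAM1 was 104 CPM (78.8 to 135) and 129.6 CPM (104 to 159.7), and NFKB1 was 155 and 144 CPM, neither different beyond counting error. Leukocyte markers summed to 36.5 and 45.7 CPM in cluster 14. PTPRC had 4 and 11 UMIs, CD247 7 and 16, DOCK2 7 and 3, IKZF1 2 and 0, CSF1R 0 and 1, and CD163 0 in both libraries. The thick limb marker SLC12A1 went from 51.1 CPM (28 UMIs) to 194 CPM (132 UMIs) in this cluster, and the median log2 ratio of the ribosomal protein genes was -0.53. The part of these measures in the differences was not tested. The NFKBIA ratio ranged from -1.36 to -0.84 and the TNFAIP3 ratio from -1.68 to -0.58 under the 12 other settings, with the smallest differences after thinning.

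NFKB1 encodes the precursor p105 and the DNA-binding subunit p50. It differed little between the libraries. Of the 17 classes and clusters, all of which had enough UMIs, 12 had a ratio above 0, and the interval left out 0 only in IMM and DCT. In IMM it was 171 CPM (141 to 206) in the unperfused and 215 CPM (197 to 235) in the perfused library, a log2 ratio of 0.33 (0.03 to 0.64). In DCT it was 73.3 CPM (60.3 to 88.2) and 97.1 CPM (79.9 to 117), a log2 ratio of 0.41 (0.01 to 0.80). In PT, with 1080 and 862 UMIs, it was 107 CPM (100.5 to 113) and 104 CPM (97.6 to 112). The PT interval of -0.16 to 0.10 on the log2 scale leaves out a difference of 1.5-fold by counting error. EC had 149 and 164 CPM and STROMA 126 and 144 CPM, with overlapping intervals in each. Over all nuclei the log2 ratio was 0.18 (0.11 to 0.26).

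ICAM1 encodes the adhesion molecule that binds leukocyte integrins on endothelium. Summed over the class it was higher in perfused STROMA and, by less, in perfused EC. In EC, 208 UMIs gave 91.6 CPM (79.5 to 105) in the unperfused and 190 UMIs gave 114 CPM (98.3 to 131) in the perfused library, a log2 ratio of 0.31 (0.02 to 0.61). In STROMA, 53 UMIs gave 45.0 CPM (33.7 to 58.8) and 145 UMIs gave 76.5 CPM (64.5 to 89.97), and the intervals of the libraries do not overlap. That log2 ratio was 0.77 (0.30 to 1.25). It was 1.18 without nuclei that had a leukocyte marker and 0.33 with the subcluster shares held fixed. Of the 8 STROMA subclusters with 10 or more nuclei in each library, ICAM1 was higher in 5 and lower in 3. The interval left out 0 only in subcluster 6, where ICAM1 was lower (7 and 1 UMIs, -4.31, -9.80 to -1.35). In the mesangial subcluster ICAM1 had 0 UMIs in 30 unperfused and 13 UMIs in 51 perfused nuclei. That 0 entered the ratio as 3 UMIs, so its interval (-0.84 to 3.48) is only a bound. The CPM intervals there, 0 to 50.3 and 44.4 to 143, overlap. In IMM the values were 49.8 CPM (34.1 to 70.3) and 69.8 CPM (59.4 to 81.5), with a log2 ratio of 0.49 (-0.07 to 1.08). In EC, ICAM1 and NFKBIA went opposite ways between the libraries, each by less than 2-fold. In cluster 10 both were lower in the perfused library within counting error, with ICAM1 at 143 CPM (106 to 189) and 107 CPM (74.5 to 149).

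ICAM1 in PT passed the fold on few UMIs. It went from 13 UMIs in 13 nuclei (1.29 CPM, 0.68 to 2.20) to 23 UMIs in 17 nuclei (2.79 CPM, 1.77 to 4.18), and 1 perfused nucleus held 4 of these UMIs. The log2 ratio was 1.12 (0.07 to 2.22), with a range from 0.92 to 2.17 under 12 other settings. The shares of PT nuclei with a UMI, 0.73% (0.39 to 1.25) and 1.41% (0.83 to 2.25), stood beside 1.09% and 0.68% in DCT and 0.58% and 0.90% in CNT. The perfused PT share was the highest of these, and its interval holds the DCT and CNT values from 0.90% to 1.09%. Other tubular classes went higher, with 2.67% and 3.60% in LOH and 0.89% and 3.33% in IC-B. PC had 0.57% and 1.32%, and IC-A 0.33% and 0%. Free RNA was not estimated for PT, and its part in this difference was not tested. PODO had 0 UMIs of ICAM1 in both libraries. A limit of 3 UMIs for a count of 0 would be 7.09 and 13.4 CPM there, and the exact intervals reach up to 8.72 and 16.5 CPM.

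CCL2 encodes the chemokine MCP-1, which attracts monocytes. Of the pairs with enough UMIs it had the largest log2 ratio, in STROMA. There 14 UMIs in 11 of 372 nuclei gave 11.9 CPM (6.49 to 19.9) in the unperfused, and 95 UMIs in 38 of 536 nuclei gave 50.1 CPM (40.5 to 61.2) in the perfused library. The log2 ratio was 2.08 (1.26 to 3.002), and it ranged from 1.34 after thinning to 2.20 with TMM factors under 14 other settings. Without the nucleus with the most CCL2 UMIs in each library (2 and 11 UMIs) it was 2.12. A CCL2 UMI was found in 2.96% (1.49 to 5.23) of unperfused and 7.09% (5.07 to 9.60) of perfused STROMA nuclei (median 2356.5 and 2562.5 UMIs). In PT, at a median of 5291 and 6623 UMIs, that share was 0.39% and 0.33%. Thinned to 1000 UMIs, the STROMA shares were 1.70% and 3.56%, and the PT shares 0.23% (4 nuclei) and 0.085% (1 nucleus).

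Several other measures moved with CCL2 in STROMA, and their part in its difference was not tested. The 6 leukocyte markers summed to 298 CPM before and 519 CPM after perfusion, all 6 of them were higher, and CD163 went from 9 to 113 UMIs. Without the nuclei that had any of these markers the CCL2 ratio was 1.91. The free RNA estimated from tubule markers was 28.5% and 16.4% of STROMA UMIs, and subtracting it gave a ratio of 1.91. Over 63 ribosomal protein genes the median log2 ratio in STROMA was 0.97, with 29 called higher, and mitochondrially encoded genes took 0.192% and 0.749% of UMIs.

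CCL2 was spread over the stromal subclusters (the plot of STROMA subclusters). It was higher in the perfused library in 6 of the 8 subclusters that had 10 or more nuclei in each library. The interval of the ratio left out 0 in 1 of them, subcluster 0. In subclusters 1, 2 and 7 an unperfused count of 0 entered the ratio as 3 UMIs. Their intervals hold 0 with that setting and are only bounds. Subcluster 7 had 0 UMIs in 14 unperfused and 8 UMIs in 24 perfused nuclei. Subcluster 0, led by ART4, HPSE2 and LRRC36, went from 15.5 CPM (4.23 to 39.7) to 49.5 CPM (29.3 to 78.2). The mesangial subcluster went from 54.5 CPM (14.9 to 139.7, 4 UMIs) to 102.7 CPM (58.7 to 167, 16 UMIs), and these intervals overlap. In the smooth muscle or pericyte subcluster 2 UMIs stood against 4 UMIs. Subcluster 1, led by CD163, LRRC3B and RASGRP3, had 0 UMIs in 35 unperfused and 23 UMIs in 89 perfused nuclei, and its leukocyte markers summed to 798 and 894 CPM. The leading genes of subcluster 1 also included the endothelial markers FLT1 and TEK. Subcluster 2, led by KCND2, APOB and INSYN2B, had 0 UMIs in 34 and 21 UMIs in 86 nuclei. Its leukocyte markers summed to 596 and 714 CPM, beside 298 and 519 CPM in STROMA as a whole. Subclusters 1 and 2 held the most perfused CCL2 UMIs of the class, ahead of subcluster 0 with 18. With the subcluster shares held fixed the CCL2 ratio in STROMA was 1.96.

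**Figure D3:**
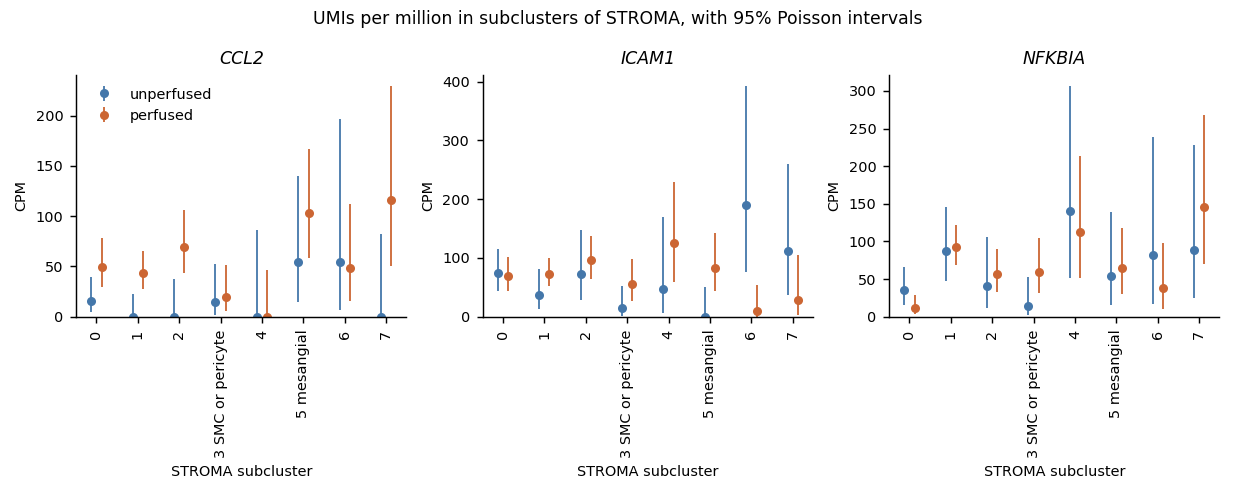
CPM of CCL2, ICAM1 and NFKBIA (y axes, from 0) in the STROMA subclusters that had 10 or more nuclei in each library (x axes), for the unperfused (blue) and perfused (orange) library, with exact 95% Poisson intervals as bars. CCL2 was higher in the perfused library in 6 of 8 subclusters, and its intervals overlap in all but subclusters 1 and 2.

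In EC, CCL2 went the other way, on few nuclei. It had 27 UMIs in 13 of 1140 nuclei or 11.9 CPM (7.83 to 17.3) in the unperfused, and 5 UMIs in 5 of 686 nuclei or 2.997 CPM (0.97 to 6.99) in the perfused library. The log2 ratio was -1.99 (-3.72 to -0.59), and it ranged from -2.72 to -1.40 under 14 other settings. A single unperfused nucleus held 8 of the 27 UMIs, and 17 of them lay in subcluster 2, whose leading genes included CXCL9, CXCL10 and CCL2 itself. The perfused share of nuclei, 0.73% (0.24 to 1.69), stood beside 0.62% (0.20 to 1.44) in LOH, whose nuclei were deeper (median 2148.5 and 5753 UMIs) and whose level was 1.01 CPM. Subtracting the free RNA estimate gave a ratio of -2.42 in EC. IMM had 26.4 CPM (15.4 to 42.3, 17 UMIs) and 39.7 CPM (32.0 to 48.8, 91 UMIs), a log2 ratio of 0.59 (-0.17 to 1.43). CCL2 over all nuclei went from 2.81 CPM (2.21 to 3.52) to 7.89 CPM (6.87 to 9.03), a log2 ratio of 1.49 (1.10 to 1.89). With the share of each class held fixed this was 0.76.

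The other members were also counted in the nuclei with and without CCL2, and these shares were not tested. In perfused STROMA NFKBIA was found in 36.8% of the 38 nuclei with CCL2 and in 14.7% of the 498 without it, ICAM1 in 34.2% and 13.5%, and TNFAIP3 in 21.1% and 3.01%. These 38 nuclei were deeper, with a median of 3727 UMIs against 2429. A leukocyte marker was found in 55.3% of nuclei with CCL2 and 47.2% of those without. In unperfused STROMA 11 nuclei had CCL2 and 361 did not. ICAM1 (18.2% and 8.86%), TNFAIP3 (9.09% and 3.32%) and NFKB1 (36.4% and 26.9%) were more frequent in those with CCL2. The order was the other way for NFKBIA, found in 1 of the 11 nuclei (9.09%) and in 11.4% of the 361. It was so too for IRF1, found in 0 and 12 nuclei.

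IRF1 encodes a transcription factor that NF-kB and interferons induce and that switches on antigen presentation genes. Its highest levels over both libraries were in IMM, cluster 10 and EC, whose intervals overlap. In EC it was 40.1 CPM (32.3 to 49.2, 91 UMIs) in the unperfused and 31.8 CPM (23.8 to 41.6, 53 UMIs) in the perfused library. In IMM it was 49.8 CPM (34.1 to 70.3) and 36.7 CPM (29.2 to 45.4). In STROMA it was 11.9 CPM (6.49 to 19.9) and 19.0 CPM (13.3 to 26.3). None of these differed beyond counting error, with log2 ratios of -0.33 (-0.85 to 0.17), -0.44 (-1.04 to 0.19) and 0.68 (-0.25 to 1.68). In PT, 63 UMIs gave 6.23 CPM (4.79 to 7.97) and 27 UMIs gave 3.27 CPM (2.16 to 4.76), a log2 ratio of -0.93 (-1.64 to -0.26), short of 2-fold. Over all nuclei it was 10.4 and 9.48 CPM, and the log2 ratio was -0.13 (-0.38 to 0.12).

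The other genes of the pathway were taken from a list of ligands, receptors, kinases, subunits, inhibitors and targets, 78 of which are in the files (the plot of pathway genes). In STROMA 50 of them had enough UMIs, 6 were called higher and 0 lower, beside 4.71% and 5.83% of all genes. Their median log2 ratio was 0.18, against -0.01 over all genes. The chemokines CCL5 (7 and 52 UMIs, log2 ratio 2.21, 1.06 to 3.59) and CXCL10 (10 and 57 UMIs, 1.83, 0.84 to 2.96) were among the 6, with the adaptor TRAF2 (1.71, 0.14 to 3.71), the receptor CD40 (1.60, 0.48 to 2.91) and the prostaglandin synthase PTGS2 (1.40, 0.70 to 2.16). PTGS2 went from 17.8 to 46.9 CPM. Without the nuclei that had a leukocyte marker, 31 genes had enough UMIs and 3 were called higher, CXCL10, PTGS2 and IKBKG. The share of all genes called in that setting is not given, so this count has no background beside it. Of the subunits, REL went from 35.6 to 70.7 CPM (0.99, 0.48 to 1.52), short of the fold, and RELA from 28.8 to 32.7 CPM (0.18, -0.45 to 0.83). Both were named after their values were seen.

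**Figure D4:**
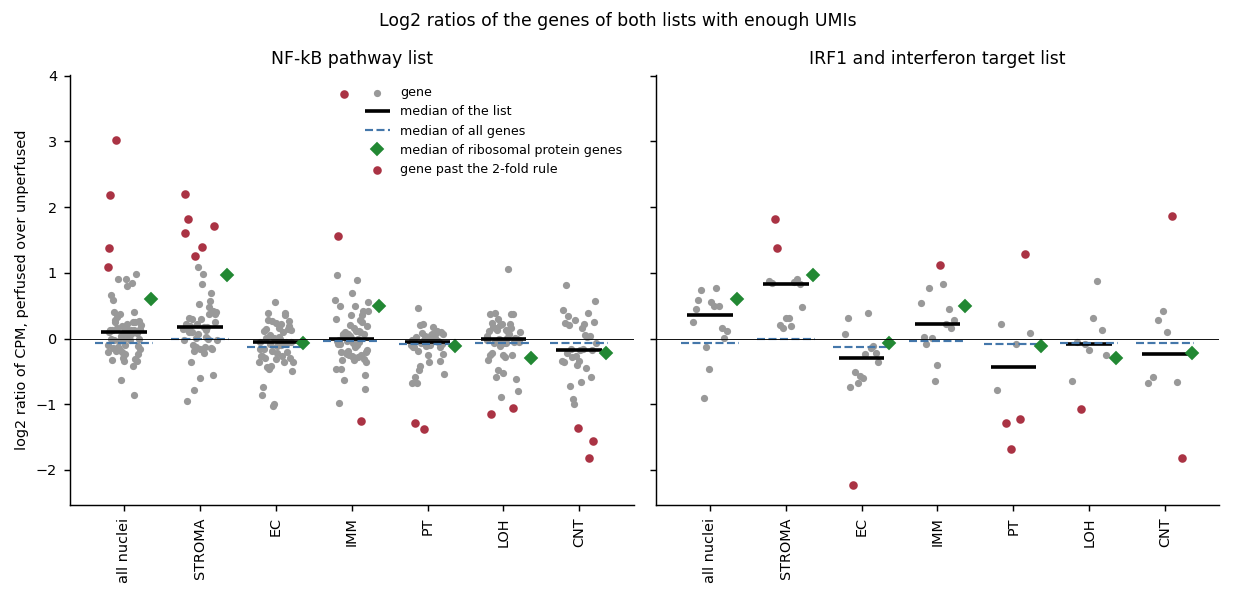
Log2 ratio of CPM, perfused over unperfused (y axes), of each gene with enough UMIs of the NF-kB pathway list (left) and of the IRF1 and interferon target list (right) over all nuclei and in 6 classes (x axes). Red points passed the 2-fold rule, black bars are medians of the list, dashed blue bars medians of all genes and green diamonds medians of the ribosomal protein genes, and in STROMA the interferon list had a median of 0.83 beside 0.97 for ribosomal protein genes.

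In EC, 0 of 52 pathway genes were called in either direction, where 0.63% of all genes were called higher and 5.23% lower. Their median log2 ratio was -0.06, against -0.13 over all genes. TMM factors, another scaling, raised every log2 ratio by 0.14 in EC, 0.12 in STROMA and 0.21 in IMM, which turned the EC median to 0.08. In IMM, 63 genes had enough UMIs, and IL1A (1 and 47 UMIs, 3.72, 1.17 to 9.05) and CCL5 (23 and 243 UMIs, 1.57, 0.95 to 2.25) were called higher and TLR3 (34 and 51 UMIs, -1.25, -1.90 to -0.58) lower, beside 1.9% and 3.8% of all genes. None of the 6 member genes was called in IMM. Over all nuclei 4 of 69 genes were called higher, IL1A (3.02), CCL5 (2.18), CCL4 (1.37) and the survival gene BCL2A1 (1.09), and 0 lower. Of all genes 2.32% were called higher and 8.82% lower there.

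In the tubular classes PT, LOH and CNT the calls of pathway genes were few and all in the lower direction, in which most calls over all genes lay too. In PT 2 of 46 genes were called lower, beside 8.81% of all genes, the receptor adaptor MYD88 (108 and 34 UMIs, -1.37, -1.98 to -0.81) and CXCL10 (21 and 7 UMIs, -1.29, -2.77 to -0.0036). In LOH these were TLR4 (-1.06, -1.90 to -0.24) and the chemokine CXCL2 (-1.14, -2.01 to -0.30) of 47 genes, beside 5.35% of all genes. In CNT the inhibitors NFKBIZ (-1.37, -2.41 to -0.43) and TNIP2 (-1.56, -3.12 to -0.26) and the peptide transporter TAP1 (-1.82, -3.55 to -0.43) were called lower of 35, beside 6.02% of all genes, in the class where NFKBIA was lower too. In PT, LOH and CNT 0 were called higher, where 0.589%, 0.602% and 1.15% of all genes were. In cluster 14, 1 of 26 genes was called, the growth factor CSF1 (10 and 31 UMIs, 1.32, 0.26 to 2.52), and it was higher. Of all genes 3.03% were called higher and 3.66% lower in that cluster.

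The targets of IRF1 and interferon had ratios above 0 in STROMA and mostly below 0 in EC. In STROMA 13 of 16 had enough UMIs, all 13 had a ratio above 0, and the median was 0.83, beside 49.5% above 0 and a median of -0.01 over all genes. The chemokines CXCL10 and CXCL9 (6 and 25 UMIs, 1.37, 0.05 to 2.95) passed the fold, where 4.71% of all genes were called higher. All 7 genes with enough UMIs had a ratio above 0 without the nuclei that had a leukocyte marker, with a median of 0.58, and the median of the ribosomal protein genes was then 0.64. In EC 3 of 14 ratios were above 0 and the median was -0.29, beside 36.5% above 0 and a median of -0.13 over all genes. The EC median of the list was -0.15 with TMM factors. CXCL9 (32 and 5 UMIs, -2.23, -3.95 to -0.86) was called lower in EC, where 5.23% of all genes were. In PT 3 of 8 were called lower and 1 higher, beside 8.81% and 0.589% of all genes. Among the lower was the guanylate-binding protein GBP1, which went from 78.1 CPM (790 UMIs) to 24.2 CPM (200 UMIs). Its log2 ratio was -1.69 (-1.92 to -1.46), and IFIT1 was lower too (-1.22, -1.71 to -0.75). The regulator of antigen presentation NLRC5 was higher in PT (18 and 36 UMIs, 1.29, 0.44 to 2.20). GBP1 was also lower in LOH, from 70.3 to 33.3 CPM (-1.08, -1.37 to -0.78). It was called lower too in DCT (-1.12), PC (-1.38), IC-A (-1.17) and cluster 11 (-1.57). NLRC5 was called higher too in DCT (1.35), CNT (1.87), IC-A (1.09) and the cycling class (1.71). For DCT, PC, IC-A, cluster 11 and the cycling class the share of all genes called is not given. In IMM, ISG15 was called higher (12 and 93 UMIs, 1.12, 0.25 to 2.12), beside 1.9% of all genes. The difference between STROMA and EC was not tested. Of the 10 genes of the IRF family list, IRF5 was higher in STROMA (3 and 21 UMIs, 2.12, 0.38 to 4.51) and over all nuclei (1.16, 0.71 to 1.63). In STROMA 4.71% and over all nuclei 2.32% of all genes were called higher. In EC 0 of 5 were called, beside 0.63% of all genes called higher and 5.23% lower. In IMM 0 of 7 were called, beside 1.9% and 3.8% of all genes.

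The genes whose pattern was most like each member were found by Pearson's r of log2(CPM + 1) over 24 points, the 12 named classes of both libraries, among 11030 genes with at least 200 UMIs. The points share libraries and depth, so r is a description. NFKBIA was most like TNFRSF1B (0.94), NOSTRIN (0.94) and CLEC3B (0.93), and ICAM1 like PTGIS (0.96), FLI1 (0.96) and SH2D3C (0.95). Among the genes most like TNFAIP3 were RASSF1 (0.90) and LCK (0.90), and CCL2 was most like DES (0.90), MMP2 (0.90) and CYSLTR2 (0.90). NFKB1 was most like TOP1 (0.88), MYL12A (0.87) and PIK3R5 (0.87), and IRF1 like ITM2B (0.88), P2RX7 (0.86) and BRD9 (0.85). Among the members the closest pair was NFKBIA and ICAM1 (0.81), and the least close was ICAM1 and IRF1 (0.52).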

How the data were processed

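Nuclei were isolated from snap-frozen renal cortex and sequenced with a 3′ droplet kit. The authors aligned reads with Cell Ranger 5.0.1 to a reference built from Ensembl pig sequences, counting introns, and deposited unnormalized UMI counts per gene and barcode (34415254 UMIs in 7179 unperfused and 35525592 in 6205 perfused barcodes). The study removed ambient RNA with SoupX before its own analysis. The deposited values are whole numbers and hold barcodes outside its filters, so they were taken as counts before that step, and ambient RNA was kept here. No genome was used, so no coordinates or sequences are given.

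The nuclei kept had 500 to 6000 genes and no more than 7% of UMIs from mitochondrial genes, and 641 and 489 doublets called by Scrublet (scanpy 1.11.5) were removed. Libraries were integrated in Seurat 5.3.0 (R 4.3.3) on 2000 variable genes, from which members and pathway lists were left out, and clustered on 15 components at resolution 0.5. A cluster took the name of the marker list with the highest mean log2 fold (offset 5 CPM) if at least 3 markers were raised (log2 fold over 1, in at least 10% of nuclei) and no other list had more markers among its leading 10 genes.

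Intervals are exact at 95%: Poisson for CPM, Clopper-Pearson for shares, conditional binomial for ratios. A count of 0 entered a ratio as 3 UMIs, unless the other library had 3 or fewer, when none was computed. Where few nuclei hold most UMIs, intervals are too narrow. The free RNA estimate rests on the tubule genes UMOD, SLC12A1, CUBN and LRP2. It takes all their UMIs in a class as free RNA, so tubule nuclei that lie in the class raise it. Interval and call code was tested on simulated data. The members and lists were chosen with earlier results of these data known. Genes named were the members, up to 5 list genes with the largest ratios past the fold in each class, and the 3 genes most like each member, of which 1 is not reported here. The leading genes of clusters, REL, RELA, IKBKG, markers of other lineages and the ribosomal protein genes were named beside these after their values were seen. Alternatives included TMM (edgeR 4.0.16) and DESeq2 1.42.0 size factors on the class sums.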

Additional observations from a re-analysis of the deposited data

Results flagged for a closer look

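NFKBIA and CCL2 had reported ratios of opposite direction in different classes, with intervals that left out 0 in each. NFKBIA had a log2 ratio of perfused over unperfused of 0.51 in STROMA, -0.71 in EC, -1.74 in CNT and -1.21 in cluster 14. The STROMA direction did not hold under all settings: it was -0.05 without nuclei that had a leukocyte marker, -0.35 after thinning and -0.0070 with nuclei weighted equally. Under the remaining settings it stayed above 0, from 0.081 with subcluster shares held fixed to 0.72 at resolution 1.0. CCL2 had a log2 ratio of 2.08 in STROMA and -1.99 in EC. With 1 library per condition the difference between classes was not tested in either gene.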

How the results depend on the processing

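No paired analysis was possible because each condition has 1 library, and for the same reason no library could be left out. Of 652 values of the 52 ratios under other settings, 634 lay within the counting interval of the reported ratio, 18 lay outside it, and 0 of the ratios past the fold changed sign. Some of these values could not change. Sums over all nuclei do not depend on the resolution, the integration or the variable genes. IMM kept its nuclei when those with a leukocyte marker were left out. Over all nuclei the NFKBIA log2 ratio moved to -0.39 after thinning to 1000 UMIs, to -0.38 with nuclei weighted equally and to -0.31 with class shares held fixed. Fixed class shares gave 0.046 for TNFAIP3, 0.35 for ICAM1 and 0.76 for CCL2, and equal weights gave 0.85 for TNFAIP3. For NFKB1 it was 0.28 with TMM factors and 0.28 with DESeq2 size factors. Pairs of a member and a named class called higher, 2 as reported, were 4 with doublets kept, without a mitochondrial limit or with list genes among the variable genes, and 1 without integration or after thinning. Pairs called lower, 2 as reported, were 0 after thinning and 4 at 1.5-fold. Pathway genes called higher over all nuclei, 4 as reported, were 7 with TMM factors or DESeq2 size factors and 9 at 1.5-fold, where 2 were called lower. Pathway genes called higher in STROMA, 6 as reported, were 2 at resolution 0.3 or without integration, and 3 with doublets kept, without nuclei that had a leukocyte marker or after thinning. Pathway genes called lower in STROMA, 0 as reported, were 1 at resolution 0.3 or without integration and 2 at 1.5-fold. The shares of all genes called under these other settings are not given. The counts of calls therefore have no background beside them and are not read as results about the listed genes. Fewer nuclei or UMIs entered without the leukocyte marker nuclei and after thinning, and the cause of the other changes was not tested. Depth limits TNFAIP3, CCL2 and IRF1 in most classes.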
